A study of Mus musculus and Macaca mulatta with 39 samples.

Results

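Chromatin regions around 6 mouse genes for transcription factors of the ventral telencephalon, Dlx1, Dlx2, Dlx5, Dlx6, Nkx2-1 and Gsx2, were examined in dissected cortex, the dorsal part of the same brain vesicle. The members are all regions that touch 1 of 4 windows set around these genes on the mouse build mm9. The Dlx1-Dlx2 window spans chr2:71350000-71395000, the Dlx5-Dlx6 window chr6:6790000-6850000, the Nkx2-1 window chr12:57610000-57660000 and the Gsx2 window chr5:75455000-75490000. They hold 207 of the 921935 regions in the 16 mouse lists: 58 in the Dlx1-Dlx2 window, 42 in the Dlx5-Dlx6 window, 45 in the Nkx2-1 window and 62 in the Gsx2 window.

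The lists come from chromatin immunoprecipitation and sequencing (ChIP-seq) with antibodies to 2 histone modifications, H3K27ac and H3K4me2. The tissue came from C57BL6J embryos: whole cortex at embryonic day 11.5 (E11.5) and E14.5, and frontal and occipital cortex separately at E17.5. No group carries a further allele or treatment according to the labels. Each of the 4 tissues has 2 biological replicates, and each replicate gave an H3K27ac list and an H3K4me2 list that share an input control.

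Dlx1, Dlx2, Dlx5 and Dlx6 are homeodomain factors of the ganglionic eminences, the ventral swellings where GABAergic interneurons are born, and they stay on in many interneurons that migrate into the cortex. Nkx2-1 specifies the medial ganglionic eminence and is switched off in most interneurons bound for the cortex, and Gsx2 acts in progenitors of the lateral ganglionic eminence, upstream of the Dlx genes. H3K27ac marks active promoters and enhancers, whereas H3K4me2 marks promoters and enhancers whether active or poised. Developmental genes that are silent in a tissue often keep H3K4 methylation over wide CpG-rich stretches.

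RefSeq promoter sequences were at hand for 4 of the 6 genes, Dlx1, Dlx2, Nkx2-1 and Gsx2, on build GRCm38.p6. Since the regions are on mm9, the promoters were not placed on them, and gene starts, exons and introns within the windows were not analysed here. The 250 bases upstream of the start hold 22 CpG dinucleotides in Dlx1, 24 in Dlx2, 9 in Nkx2-1 and 16 in Gsx2. As many CpG or more were found in 14.8%, 12.0%, 40.3% and 25.4% of all RefSeq promoters over the same length, in that order. The sequences with the most and the fewest CpG of the 4 are shown 5′ to 3′ on the gene's own strand, with CpG in capitals. The Dlx2 sequence is chr2:71546755-71547004 on the minus strand and the Nkx2-1 sequence is chr12:56536909-56537158 on the minus strand.
Dlx2: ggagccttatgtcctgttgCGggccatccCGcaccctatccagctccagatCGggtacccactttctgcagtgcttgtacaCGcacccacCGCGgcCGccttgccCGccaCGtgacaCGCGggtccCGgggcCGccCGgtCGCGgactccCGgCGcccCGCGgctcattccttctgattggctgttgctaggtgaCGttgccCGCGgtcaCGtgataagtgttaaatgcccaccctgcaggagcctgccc
Nkx2-1: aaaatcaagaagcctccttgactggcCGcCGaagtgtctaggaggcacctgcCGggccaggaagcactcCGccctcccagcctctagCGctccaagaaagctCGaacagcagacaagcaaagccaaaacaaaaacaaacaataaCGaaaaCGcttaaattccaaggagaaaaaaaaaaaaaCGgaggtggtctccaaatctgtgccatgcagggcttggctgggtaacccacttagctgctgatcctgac
The homeodomain core motif TAATT, searched on both strands (as TAATT or AATTA), was found in the Gsx2 sequence and in none of the other 3. It occurs in 25.0% of all promoters of this length. In the RefSeq gene order, Dlx1, the antisense gene Dlx1as and Dlx2 are neighbours, as are Dlx6, Dlx6os2 and Dlx5.

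The deposited lists give positions only, so the values below are lengths of DNA covered by called regions, not signal heights, and the sequencing depth behind them is unknown. The lists differ in length. The H3K27ac lists hold 47631 to 87236 regions over 63.1 to 169 Mb, and the H3K4me2 lists hold 32366 to 76833 regions over 65.3 to 162 Mb. The H3K27ac list of E11.5 replicate 2 is the shortest of its mark, and the H3K4me2 list of E14.5 replicate 1 is the shortest of its mark. Both touch results below. The tissue is bulk cortex, so fewer cells with a mark and a weaker mark per cell cannot be told apart. Marker genes outside the windows were not analysed here.

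Both Dlx windows held regions of both marks in every list, and more of each window was covered at E17.5 than at E11.5. In the Dlx1-Dlx2 window, which holds the genes for a pair of factors needed for interneuron differentiation and migration, H3K27ac covered 20050 and 8700 bp at E11.5 (replicates 1 and 2) and 34176 and 27775 bp at E14.5. At E17.5 it covered 31602 and 35551 bp in frontal and 34501 and 25250 bp in occipital cortex. All 4 E17.5 lists, and both E14.5 lists, lay above both E11.5 lists. Shares of such orders over windows of this size, or for E14.5 against E11.5, were not computed. The whole H3K27ac lists differed by a ratio of 1.70 between E14.5 and E11.5. Single loci (merged stretches called in at least 2 lists) are a different unit from a window. Among H3K27ac loci every E17.5 list lay above both E11.5 lists at 28.9%, and the opposite order held at 3.93%. The first order is thus common among loci. The mean was 14375 ± 8026 bp (SD, n = 2) at E11.5 and 31726 ± 4629 bp (SD, n = 4) at E17.5, a ratio of 2.21, while the mean length of the whole H3K27ac lists differed by a ratio of 2.09.

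H3K4me2 in the Dlx1-Dlx2 window differed less between stages. It covered 23700 and 31300 bp at E11.5, 24475 and 30575 bp at E14.5, 33075 and 31776 bp in E17.5 frontal and 32500 and 34351 bp in E17.5 occipital cortex. The E17.5 lists again did not overlap the E11.5 lists, but the gap was narrow, with a lowest E17.5 value of 31776 bp against a highest E11.5 value of 31300 bp. Among single H3K4me2 loci, not windows, the E17.5 lists lay above the E11.5 lists in this way at 20.9%. The ratio of means was 1.20, against 1.30 for the whole lists.

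The Dlx5-Dlx6 window, around the genes for factors that act downstream of Dlx1 and Dlx2 in the same lineage, held some of the widest H3K4me2 regions in the data. The widest H3K4me2 region there measured 9625 and 33850 bp at E11.5, 35600 and 37575 bp at E14.5, 42425 and 41125 bp in E17.5 frontal and 40925 and 44775 bp in E17.5 occipital cortex. Its rank by width within its own list was 156 in E11.5 replicate 1 and between 2 and 7 in the other 7 lists. The H3K27ac regions in the same window ranked from 25 to 52 at E14.5 and E17.5, but 511 and 4517 in the E11.5 lists, where the widest measured 7575 and 2450 bp. In the Dlx1-Dlx2 window the widest H3K4me2 region ranked 149 in E11.5 replicate 1 and from 15 to 60 in the other 7 lists.

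Covered length in the Dlx5-Dlx6 window was likewise greater at E17.5 than at E11.5. H3K27ac covered 20400 and 9650 bp at E11.5, 32800 and 29450 bp at E14.5, 35000 and 37100 bp in E17.5 frontal and 37950 and 31025 bp in E17.5 occipital cortex. H3K4me2 covered 21450 and 36175 bp at E11.5, 35600 and 38625 bp at E14.5, 44051 and 42275 bp in E17.5 frontal and 41951 and 44775 bp in E17.5 occipital cortex. In both marks every E17.5 list was above both E11.5 lists. Among single loci, a different unit from a window, this order held at 28.9% for H3K27ac and 20.9% for H3K4me2. The ratio of the E17.5 to the E11.5 mean was 2.35 for H3K27ac, against 2.09 for the whole lists, and 1.50 for H3K4me2, against 1.30. The E11.5 replicates differed from each other by more than any other replicate pair in this window, in opposite directions for the 2 marks.

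**Figure D1:**
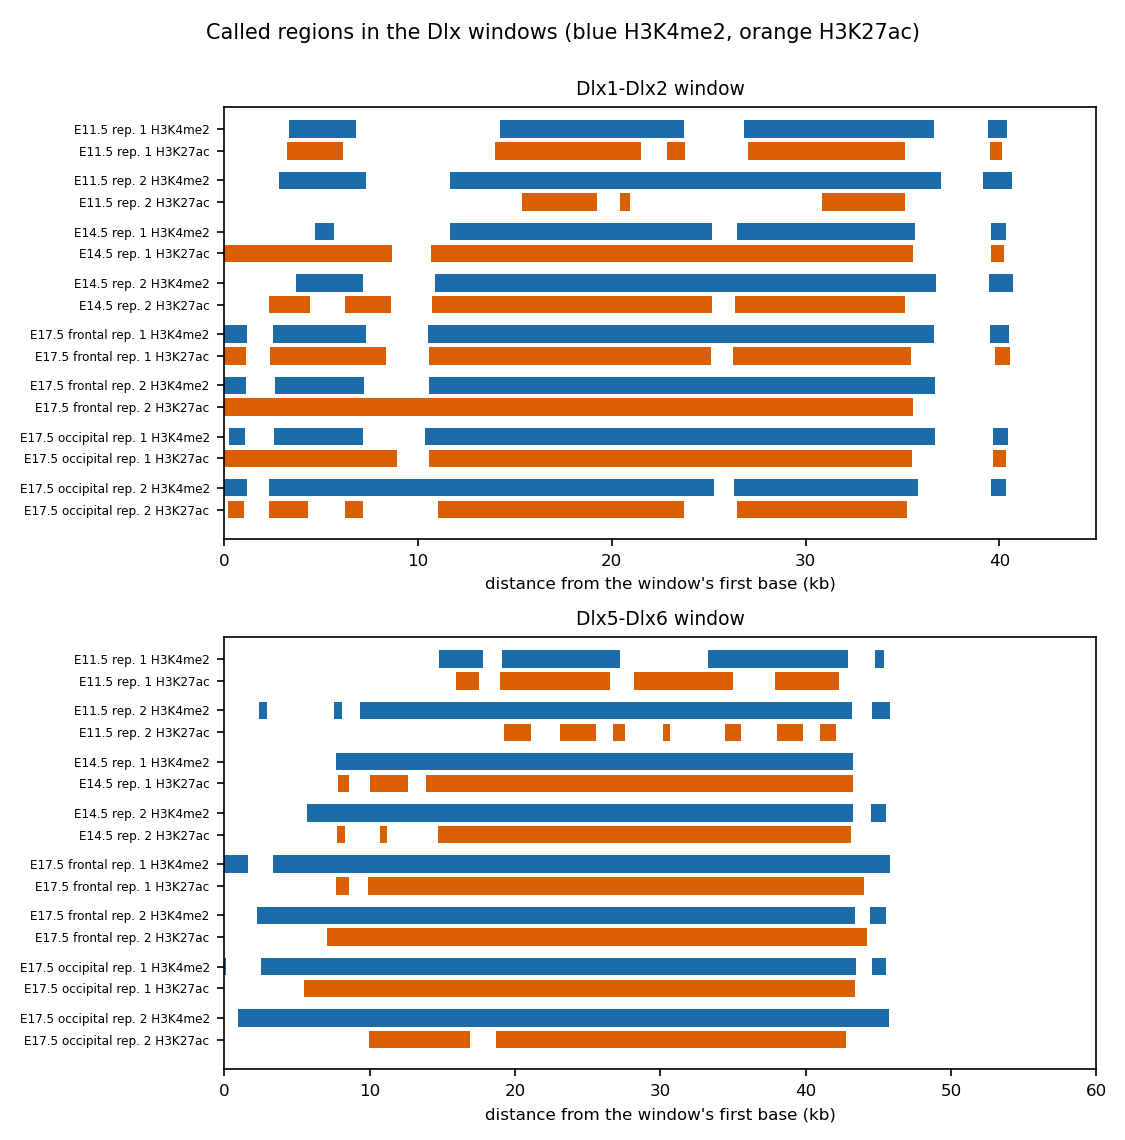
Called regions of H3K27ac and H3K4me2 in each of the 16 lists across the Dlx1-Dlx2 and Dlx5-Dlx6 windows, with distance from the window start in kb on the x axis and 1 row per list. More of each window is covered at E17.5 than at E11.5, and in the Dlx5-Dlx6 window the widest H3K4me2 region reaches 44775 bp in E17.5 occipital replicate 2.

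Within these windows a core was called in every list. H3K4me2 was present in all 8 of its lists over 19226 bp of the Dlx1-Dlx2 window and 20800 bp of the Dlx5-Dlx6 window. H3K27ac was also present in all 8 of its lists over 45.1% and 37.3% of these bases, against 53.9% for the genome. This shared part, 8675 and 7750 bp, is bounded by the shortest H3K27ac list. That list, E11.5 replicate 2, covered 8700 and 9650 bp in the 2 windows. The stretches of at least 1000 bp with both marks in all 16 lists were chr2:71365376-71369250 and chr2:71380826-71385125 in the Dlx1-Dlx2 window. In the Dlx5-Dlx6 window they were chr6:6809251-6811100, chr6:6813101-6815550, chr6:6828051-6829800 and chr6:6831001-6832100. The longest of the 6 was 4300 bp. In the Dlx5-Dlx6 window, and in the Nkx2-1 window too, no base had H3K27ac in some list and H3K4me2 in none of its 8 lists. Within a single pair such bases did occur, as over 5225 bp of the Dlx5-Dlx6 window in E11.5 replicate 1.

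The Nkx2-1 window differed from the Dlx windows in that H3K27ac was sparse and varied between replicates. H3K27ac covered 13475 bp in E11.5 replicate 1 and 0 bp in replicate 2, and 17475 and 3450 bp at E14.5. At E17.5 it covered 3150 and 1700 bp in frontal and 9325 and 825 bp in occipital cortex. The replicates of a tissue lay far apart at E11.5, at E14.5 and in E17.5 occipital cortex, the groups overlapped, and no order by stage can be read from these values. No base of the window had H3K27ac in all 8 lists, which follows from the 0 bp in E11.5 replicate 2.

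H3K4me2 was present in the Nkx2-1 window in all 8 lists. It covered 16800 and 25476 bp at E11.5, 14250 and 17650 bp at E14.5, 17675 and 9850 bp in E17.5 frontal and 8500 and 9825 bp in E17.5 occipital cortex. The highest value was that of E11.5 replicate 2 and the 3 lowest were at E17.5, but E17.5 frontal replicate 1 and E14.5 replicate 2 lay above E11.5 replicate 1. The mean was 21138 ± 6135 bp (SD, n = 2) at E11.5 and 11463 ± 4189 bp (SD, n = 4) at E17.5, a ratio of 0.542, whereas the whole lists were longer at E17.5. The widest region measured 14100 and 20925 bp at E11.5, ranks 43 and 34 in their lists, and 11875 and 14150 bp at E14.5, ranks 96 and 93. It measured 14200 and 4800 bp in E17.5 frontal cortex, ranks 117 and 3037, and 4350 and 4450 bp in E17.5 occipital cortex, ranks 5185 and 7417, so E17.5 frontal replicate 1 resembled the earlier lists. In every list H3K4me2 covered chr12:57620326-57621325 and chr12:57633651-57637925.

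In the Gsx2 window, too, H3K4me2 covered less at E17.5 than at E11.5. H3K27ac covered 9050 and 5425 bp at E11.5, 12125 and 8150 bp at E14.5, 7650 and 8950 bp in E17.5 frontal and 9225 and 3175 bp in E17.5 occipital cortex, and the stages overlapped. H3K4me2 covered 12875 and 18825 bp at E11.5, 9575 and 13225 bp at E14.5, 12800 and 12425 bp in E17.5 frontal and 11150 and 11100 bp in E17.5 occipital cortex. All 4 E17.5 lists lay below both E11.5 lists, the nearest values being 12800 and 12875 bp. This order was found at 7.04% of single H3K4me2 loci, and its share over windows was not computed. The ratio of means was 0.749 for H3K4me2 and 1.00 for H3K27ac, against 1.30 and 2.09 for the whole lists. The Gsx2 window had 1 stretch of at least 1000 bp with both marks in all 16 lists, chr5:75471176-75472550. The Nkx2-1 window could have none, since H3K27ac was missing there in E11.5 replicate 2.

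**Figure D2:**
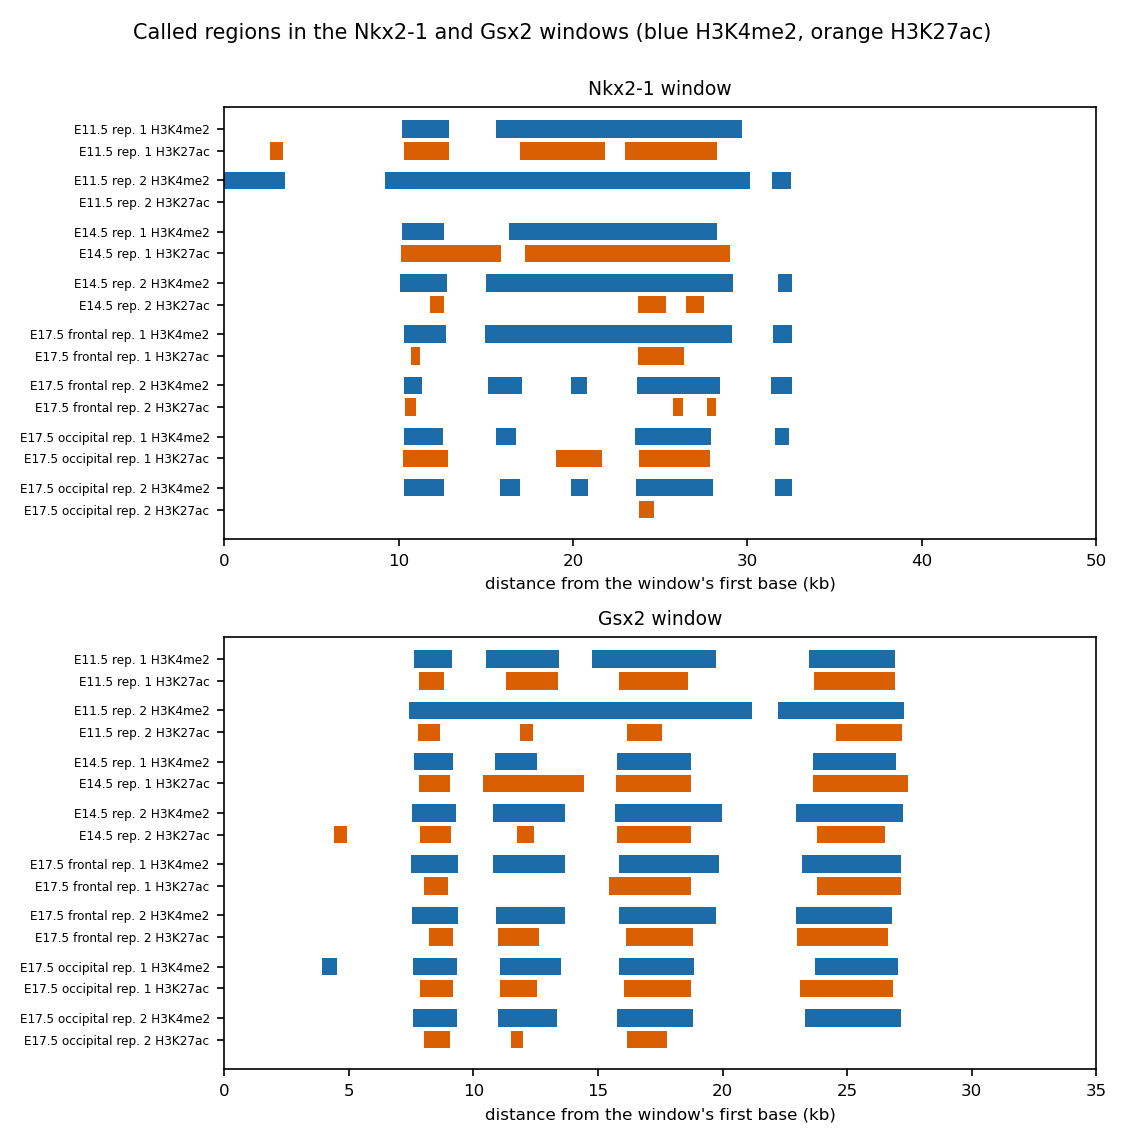
Called regions of H3K27ac and H3K4me2 in each of the 16 lists across the Nkx2-1 and Gsx2 windows, with distance from the window start in kb on the x axis and 1 row per list. H3K27ac is missing from the Nkx2-1 window in E11.5 replicate 2 and covers 825 bp in E17.5 occipital replicate 2, while H3K4me2 is present in every row.

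Against the rest of the genome, all 4 windows carried much H3K4me2. When the genome was divided into tiles of a window's own size, 0.0102% of tiles had at least as much H3K4me2, as the mean of the 8 lists, as the Dlx1-Dlx2 window (30219 bp). The share was 0.0159% for the Dlx5-Dlx6 window (38113 bp), 0.638% for the Nkx2-1 window (15003 bp) and 0.464% for the Gsx2 window (12747 bp). For H3K27ac the shares were 0.162%, 0.329%, 11.5% and 4.39%, in the same order. Each of the 4 windows thus stood higher among tiles in H3K4me2 than in H3K27ac. This ranking is a description, since the windows were drawn around developmental genes.

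**Figure D3:**
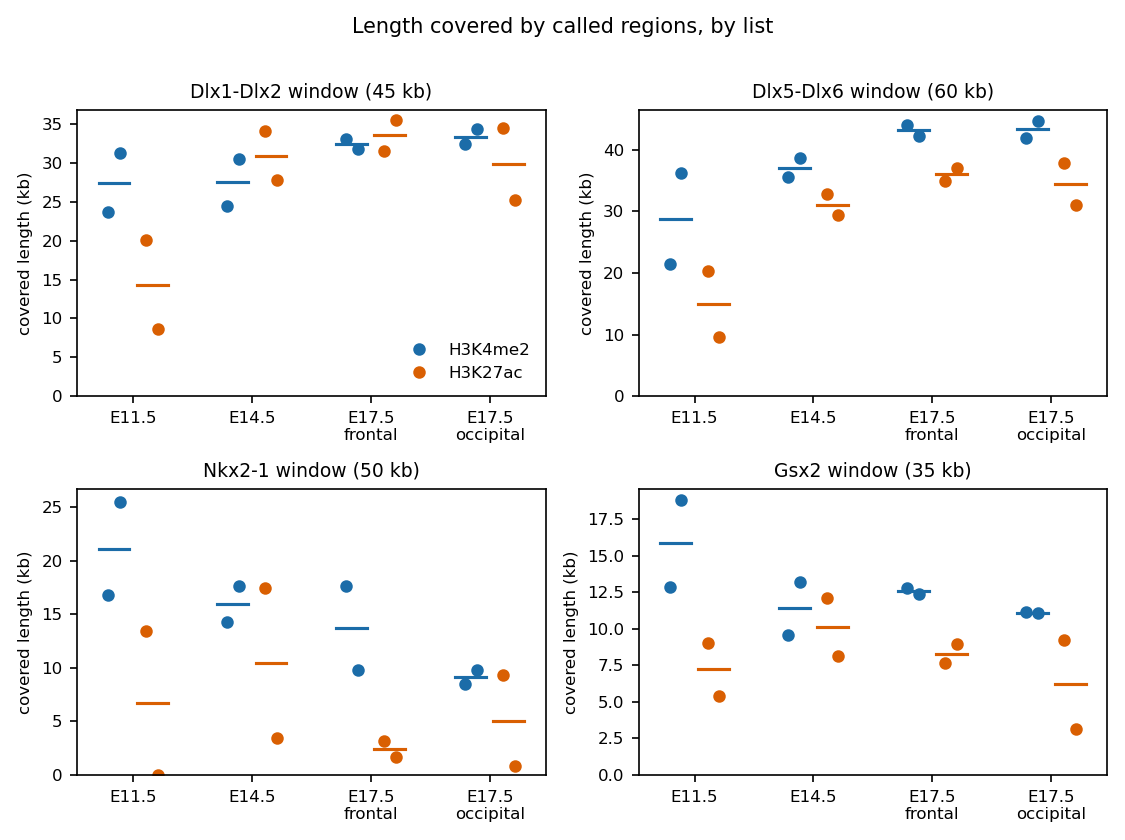
Length covered by H3K27ac and by H3K4me2 in each window, in kb on the y axis, for each tissue on the x axis. Dots are lists (replicate 1 on the left, replicate 2 on the right) and bars are the mean of 2. H3K27ac in both Dlx windows is higher after E11.5, and the H3K4me2 mean of the Nkx2-1 window is 21138 bp at E11.5 and 9163 bp in E17.5 occipital cortex.

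H3K4me2 without H3K27ac is of interest in dissected cortex because poised genes can carry the first mark without the second. The tests of covered length that come first compare net length, which is not the length of H3K4me2 outside H3K27ac. That share is given further below. How many tiles of a window's size have more H3K4me2 than H3K27ac in this way was not computed. The 2 lists of each replicate were compared as 8 pairs, with an exact two-sided permutation test within pairs (sign flips, smallest possible p 0.00781), adjusted over the 4 windows by the Benjamini-Hochberg method. In the Dlx5-Dlx6 window H3K4me2 covered 8941 ± 8202 bp more than H3K27ac (SD, n = 8 pairs, higher in 8 of 8, exact p = 0.00781, adjusted p = 0.0313). In the Gsx2 window it covered 4778 ± 4612 bp more (higher in 7 of 8, exact p = 0.0234, adjusted p = 0.0469). The difference was 8828 ± 9317 bp in the Nkx2-1 window (higher in 6 of 8, exact p = 0.0391, adjusted p = 0.0521) and 3018 ± 9684 bp in the Dlx1-Dlx2 window (higher in 5 of 8, exact p = 0.461, adjusted p = 0.461), and neither passed at 0.05.

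Which windows passed depended on whether covered length was scaled to list length. Cutting every list to an equal number of its widest regions changed no call. The adjusted exact p was then 0.430 in the Dlx1-Dlx2, 0.0313 in the Dlx5-Dlx6, 0.0521 in the Nkx2-1 and 0.0313 in the Gsx2 window. With a pair left out, the calls also depend on the smaller number of pairs. A lost call thus does not show that 1 pair carried it. With covered length scaled to the mean length of the 16 lists, H3K4me2 was higher in 8 of 8 pairs in each window (adjusted exact p = 0.00781), by 11448 bp in the Dlx1-Dlx2 and 12641 bp in the Nkx2-1 window. In most pairs the H3K27ac list was the longer one, so this scaling itself raised H3K4me2 against H3K27ac there. A scaled length is a share of its list and not a real length in the window. In the unscaled comparison, the Dlx5-Dlx6 window had more H3K4me2 in 7 of 7 pairs whichever pair was left out, by means of 6429 to 10068 bp. Its call held without E14.5 replicate 1 or without E17.5 occipital replicate 1 (adjusted exact p = 0.0313 and 0.0417). It was lost without any other pair (adjusted exact p = 0.0625), where 7 pairs cannot give an exact p under 0.0156. The Gsx2 call likewise held without E14.5 replicate 1 or E17.5 occipital replicate 1. E14.5 replicate 1 was the only pair with more H3K27ac in the Gsx2 window (-2550 bp), so leaving it out adds no support. The Gsx2 call was lost without any other pair (adjusted exact p = 0.0833 without E11.5 replicate 1 and 0.0938 without each of the rest). The Nkx2-1 difference passed without E14.5 replicate 1 or E17.5 occipital replicate 1, at 10550 and 10207 bp (adjusted exact p = 0.0417 for each). These were the only pairs in which H3K27ac covered more there (differences of -3225 and -825 bp), so leaving either out raised the difference in advance and adds no support. Without any other pair the Nkx2-1 difference did not pass (adjusted exact p from 0.0833 to 0.104).

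Replicate pairs differed widely in how much of their H3K4me2 lay outside H3K27ac. Genome-wide the share was 30.2% and 59.6% at E11.5, 16.3% and 36.5% at E14.5, 33.4% and 26.4% in E17.5 frontal and 31.0% and 44.2% in E17.5 occipital cortex. In the Dlx1-Dlx2 window it was 17.2% and 72.2%, 1.13% and 19.0%, 8.16% and 3.46%, and 4.54% and 26.6%, in the same order. Only E11.5 replicate 2, the pair with the shortest H3K27ac list, lay above its genome-wide value.

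The Dlx5-Dlx6 window had shares of 29.3% and 73.3% at E11.5, 7.87% and 23.8% at E14.5, 20.5% and 14.2% in E17.5 frontal and 9.54% and 30.7% in E17.5 occipital cortex. Again E11.5 replicate 2 was the only pair above the genome. The Nkx2-1 window had shares of 24.4% and 100%, 6.13% and 80.5%, 82.2% and 82.7%, and 25.6% and 91.6%. Its values fell into 2 sets, 5 pairs from 80.5% to 100% and 3 pairs from 6.13% to 25.6%, and the 3 low pairs were replicate 1 of E11.5, E14.5 and E17.5 occipital cortex. In these tissues the H3K27ac list of replicate 1 was longer than that of replicate 2, at 85.3 against 63.1 Mb, 144 against 107 Mb and 162 against 129 Mb. In frontal cortex, where both shares were high, the lists were 169 and 160.3 Mb long. The part of list length in this split was not tested. The Gsx2 window had shares of 29.7% and 71.2%, 3.40% and 42.2%, 43.4% and 28.0%, and 22.6% and 71.4%.

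**Figure D4:**
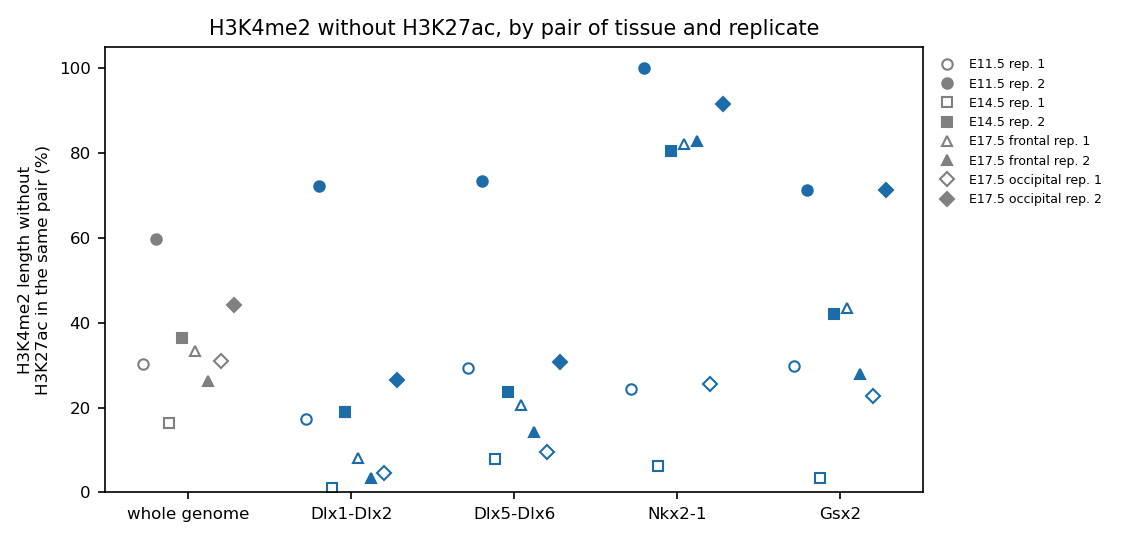
Share of the H3K4me2 length that lies outside H3K27ac, in percent on the y axis, for each window and for the genome, with 1 symbol per pair of lists (open for replicate 1, filled for replicate 2). The Nkx2-1 window ranges from 6.13% to 100%, and the Dlx1-Dlx2 window lies below the genome in every pair except E11.5 replicate 2.

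Set against the genome-wide share of the same pair, the Dlx1-Dlx2 window lay 15.7 points lower (mean 19.0% against 34.7%; difference -15.7 ± 12.4, SD, n = 8 pairs, lower in 7 of 8, exact p = 0.0156, adjusted p = 0.0625). The Dlx5-Dlx6 difference was -8.57 ± 10.6 points (exact p = 0.0781, adjusted p = 0.104). The Nkx2-1 window had a mean of 61.6%, 26.9 ± 28.6 points above the genome (higher in 5 of 8, exact p = 0.0625, adjusted p = 0.104), and the Gsx2 window 39.0%, 4.26 ± 12.5 points above (higher in 5 of 8, exact p = 0.391, adjusted p = 0.391). None passed after adjustment. Without E11.5 replicate 2 both Dlx windows lay below the genome in all 7 pairs, by means of -19.7 and -11.7 points (adjusted exact p = 0.0313 for each). That pair was the only one above the genome, so leaving it out fixed this order in advance and adds no support. Without any other pair neither window passed (adjusted exact p = 0.125 for Dlx1-Dlx2 and from 0.146 to 0.208 for Dlx5-Dlx6).

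No window held a stretch of at least 1000 bp with H3K4me2 in all 8 lists and H3K27ac in none. The longest was 374 bp, in the Nkx2-1 window at chr12:57626352-57626725. Of the 5649 bp of that window with H3K4me2 in all 8 lists, 93.4% carried H3K27ac in 1 to 7 lists, and 6.62% in none. The corresponding share with none was 0.525% in the Dlx1-Dlx2, 0% in the Dlx5-Dlx6 and 1.93% in the Gsx2 window, against 7.48% in the genome.

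Loci were also tested one by one. A locus is a merged stretch called in at least 2 lists of its mark, tested with limma on log2(covered bp + 200) across the whole genome, with Benjamini-Hochberg adjustment over all loci. Fold changes are on that scale, which understates changes of short regions. From E11.5 to E17.5, none of the 9 H3K27ac loci in the windows passed at an adjusted p of 0.05 (2 had an unadjusted p under 0.05), against 19.0% of all 85290 loci. The median change was 0.18 over the 9 and 1.01 over all loci. The sign of the median over the 9 is not stable: it was 1.09 without E11.5 replicate 1, -0.91 without E11.5 replicate 2, -0.05 without E17.5 occipital replicate 1 and -0.44 with scaled lengths. Genome-wide 14934 loci were called higher and 1248 lower, a split that became 11380 and 12375 with covered length scaled to equal list length, where none of the 9 passed either (2 at an unadjusted p under 0.05 in limma).

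The widest H3K27ac locus of each Dlx window came closest. The Dlx1-Dlx2 locus at chr2:71345677-71385550 had a fitted change of 1.32 ± 0.39 (SE, adjusted p = 0.0707 in limma), 0.31 above the median locus, and the Dlx5-Dlx6 locus at chr6:6795476-6834200 one of 1.31 ± 0.36 (adjusted p = 0.0572), 0.30 above it. Without E11.5 replicate 1 these became 1.89 and 1.84 (adjusted p = 0.0323 and 0.0263 in limma), and without E11.5 replicate 2 they became 0.75 and 0.78 (adjusted p = 0.325 and 0.272). With covered length scaled to equal list length they were 0.26 and 0.25 (adjusted p = 0.428 and 0.415 in limma), below the scaled median locus of 0.62, so their place above the median depends on the scaling. The Nkx2-1 locus at chr12:57626976-57638975 had a change of 0.64 ± 1.73 (adjusted p = 0.797), and ran from -2.20 to 3.49 with a list left out. The Gsx2 locus at chr5:75478001-75482425 had one of -0.79 ± 1.11 (adjusted p = 0.641 in limma). E17.5 occipital replicate 2 had 0 bp there: without it the change was 0.29 (adjusted p = 0.356), and without its partner, replicate 1, it was -1.86 (adjusted p = 0.0146).

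Of the 8 H3K4me2 loci in the windows, 1 rose and 0 fell, against 19.5% and 3.13% of all 63453 loci (limma, E17.5 against E11.5). It lies at the edge of the Dlx1-Dlx2 window, at chr2:71349801-71351200. It was not called in any E11.5 or E14.5 list and covered 1200 and 1225 bp in E17.5 frontal and 825 and 1400 bp in E17.5 occipital cortex. It entered the fit only through the E17.5 lists, where it had to be higher than in lists at 0, so the call is a description of where it was listed and its fitted change is not given. Without E11.5 replicate 1 it did not pass (adjusted p = 0.0568 in limma). H3K27ac covered all of this stretch in E14.5 replicate 1, E17.5 frontal replicate 2 and E17.5 occipital replicate 1, and part of it in the other 2 E17.5 lists.

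The largest H3K4me2 locus of the Nkx2-1 window went the other way. It covered 16800 and 20925 bp at E11.5, 14250 and 16825 bp at E14.5, 16575 and 8625 bp in E17.5 frontal and 7725 and 8875 bp in E17.5 occipital cortex, at chr12:57619226-57640150. Every E17.5 value lay below both E11.5 values, the nearest being 16575 and 16800 bp. Over the whole window E17.5 frontal replicate 1 covered 17675 bp, so there the order did not hold. The change was -0.90 ± 0.28 (adjusted p = 0.0748 in limma), -1.27 relative to the median locus, which moved by 0.37. With 1 list left out the change ran from -1.13, without E17.5 frontal replicate 1, to -0.67. Of the 8 loci, 3 had every E17.5 list above both E11.5 lists and 2 below, against the 20.9% and 7.04% of all H3K4me2 loci. Among the 3 is the locus at chr2:71349801-71351200, which entered only through the E17.5 lists and had to be above. Of the 9 H3K27ac loci 2 were above and 0 below, against 28.9% and 3.93% of all H3K27ac loci.

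The Gsx2 locus at chr5:75462426-75476200 changed by -0.52 ± 0.20 (adjusted p = 0.133 in limma), the Dlx5-Dlx6 locus at chr6:6783026-6835800 by 0.74 ± 0.26 (adjusted p = 0.0997) and the main Dlx1-Dlx2 locus by 0.26 ± 0.17 (adjusted p = 0.361). With covered length scaled to equal list length, 1 locus rose and 3 fell, against 17.4% and 5.95% of all loci: the Nkx2-1 locus (-1.27, adjusted p = 0.0211 in limma) and the Gsx2 loci at chr5:75462426-75476200 (-0.89, adjusted p = 0.0153) and chr5:75477226-75482275 (-0.50, adjusted p = 0.0391) fell. Scaling also turned the main Dlx1-Dlx2 locus to -0.12 (adjusted p = 0.762). Without E11.5 replicate 2 the unscaled change of the Gsx2 locus at chr5:75462426-75476200 was -0.25, and without E11.5 replicate 1 that of the Dlx5-Dlx6 locus was 0.37.

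Between E14.5 and E11.5 no locus passed for H3K27ac (0 of 9, 2 at an unadjusted p under 0.05, 7.48% of all loci called in limma) or H3K4me2 (0 of 8, 1 at an unadjusted p under 0.05, 3.94%). Frontal and occipital cortex at E17.5 likewise gave 0 of 9 and 0 of 8, with none at an unadjusted p under 0.05, against 2.31% and 9.93% of all loci in limma. Those shares are not firm: no H3K27ac locus of the genome was called with the replicate number as a block or with any 1 list left out, and no H3K4me2 locus without E17.5 occipital replicate 1 or without replicate 2.

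When both marks were fitted together over the 8 pairs, 1 of 9 loci had more H3K4me2 than H3K27ac and 0 had less, against 15.7% and 16.5% of all 96740 loci. It lies in the Nkx2-1 window at chr12:57641351-57642575. H3K4me2 covered 0 and 1050 bp at E11.5, 0 and 825 bp at E14.5, 1100 and 1225 bp in E17.5 frontal and 775 and 950 bp in E17.5 occipital cortex. No list had H3K27ac there. It entered the fit only through H3K4me2, so this call too is a description, and it was lost when any E17.5 pair was left out (adjusted p from 0.0513 to 0.0607 in limma). With scaled lengths, which favour the shorter list of a pair, 6 of the 9 loci had more H3K4me2, against 21.0% of all loci higher and 16.9% lower. Without E11.5 replicate 1, 4 of the 8 loci then tested had more, against 13.8% of all loci higher and 7.76% lower. The change of the difference between marks from E11.5 to E17.5 passed at none of the 9 loci (none at an unadjusted p under 0.05), against 0.703% of all loci in limma (244 higher and 436 lower, or 838 and 832 with scaled lengths). With every list cut to its 32366 widest regions, 1 of 6 loci passed as lower, against 4.54% of all loci higher and 4.26% lower, and with the replicate block or any 1 pair left out no locus of the genome passed.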

How the data were processed

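The deposited files are region lists with 3 columns (chromosome, start, end) and no score, so the unit is position and covered length in bp. The authors deposited 1 list per sample. The submitters' processing notes name Bowtie 0.12.9 and the builds hg19 and mm9, without saying what each was used for. The region caller was not given in the sources used here. All starts lie on a 25 bp grid and regions within a list are at least 1025 bp apart.

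Covered bp were computed in each window and list with Python 3.11.15, numpy 2.4.6 and pandas 2.3.3. Loci were regions of 1 mark merged across its 8 lists and kept when called in at least 2, or both marks merged together, and were fitted with limma 3.58.1 in R 4.3.3 on log2(covered bp + 200) with the tissue means as terms. H3K4me2 and H3K27ac lists were paired by tissue and replicate, since the design text gives them a shared input. The fits and the sign-flip test were tested on simulated data.

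The windows, genes and loci were chosen with earlier results of these data known. Loci named are the one with the largest mean covered length per window and mark, those that passed a test, and stretches of at least 1000 bp in all 16 lists or with H3K4me2 in all 8 and H3K27ac in none; shorter stretches and the scaled Gsx2 locus were named after their values were seen. The mark-by-stage contrast was added after seeing the data and run under the same alternatives. Planned homeodomain sequences are not shown. The 10 rhesus lists were not used here. Replicates are biological per the design text; with 2 against 4 lists an exact test cannot go below 0.0667, so stage differences per window are descriptions.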

Additional observations from a re-analysis of the deposited data

How the results depend on the processing

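Scaling covered length to equal list length raised the H3K4me2 excess to 11448 bp in the Dlx1-Dlx2 and 12641 bp in the Nkx2-1 window, both then called. This scaling favours the shorter list of a pair, which was the H3K4me2 list in most pairs. Cutting every list to its widest regions changed no window call. No replicate block (an unpaired permutation test) left the Dlx5-Dlx6 excess at 8941 bp but uncalled (adjusted p = 0.0758) and the Nkx2-1 excess at 8828 bp called (adjusted p = 0.0249). Counting whole regions by any overlap gave shares relative to the genome of -7.94 points (Dlx1-Dlx2) and -7.46 (Dlx5-Dlx6), both called (adjusted exact p = 0.0313), and turned Gsx2 to -3.27. Under that rule 1 bp of H3K27ac is enough for a region of any width. Counting by 50% overlap gave -12.0 (Dlx1-Dlx2) and -11.3 (Dlx5-Dlx6), neither called (adjusted exact p = 0.292 for each), and turned Gsx2 to -4.27. Called loci in the windows became 1 of 11 for H3K27ac between E17.5 and E11.5 with loci from any list (8.89% of all loci higher, 0.781% lower). For H3K4me2 they became 2 of 7, 1 in each direction, with lists cut to equal numbers of regions (14.9% higher, 7.98% lower) and 4 of 8 when scaled, and 1 of 7 for frontal against occipital with equal numbers (2.83% higher, 4.18% lower). Between marks they became 2 of 9 with a pseudocount of 1000 bp (16.7% of all loci higher), 2 of 7 with loci in 3 lists (17.2%), 2 of 6 with equal numbers (29.6%), 6 of 9 when scaled (21.0%) and 3 of 9 with the replicate block (14.9%). Scaling changed the direction of the Dlx1-Dlx2 H3K4me2 locus (-0.12), and the Nkx2-1 H3K27ac locus turned to -0.058 (pseudocount 1000) and -0.61 (equal numbers).

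Leaving out each list or pair gave an excess of 221 to 4835 bp (Dlx1-Dlx2), 6429 to 10068 bp (Dlx5-Dlx6), 6450 to 10550 bp (Nkx2-1) and 3546 to 5825 bp (Gsx2), and shares of -19.7 to -14.1, -11.7 to -6.72, 22.7 to 32.2 and 0.986 to 6.72 points. Called counts ran from 0 to 2 (H3K27ac, E17.5 against E11.5), 0 to 3 (H3K4me2) and 0 to 4 (between marks), and stayed at 0 for the other 4 counts. The Nkx2-1 H3K27ac change ran from -2.20 to 3.49, the Gsx2 one from -1.86 to 0.29 and the Dlx1-Dlx2 difference between marks from -0.014 to 0.37. Over the alternatives, the share of all loci called ran from 7.16% to 27.9%, 1.14% to 11.3% and 0% to 2.25% for H3K27ac (E17.5 and E14.5 against E11.5, frontal against occipital), from 1.89% to 25.4%, 0.00482% to 8.33% and 0% to 11.7% for H3K4me2, and from 14.8% to 47.8% between marks. The cause of these changes was not tested.

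Replicate numbers are not tied across tissues by the labels: deviations of same-numbered lists correlated from -0.20 to 0.10 for H3K27ac and -0.04 to 0.24 for H3K4me2. Limits are the unknown depth, 2 lists per tissue, and regions that report length but not height. A background of H3K4me2 regions of at least 5000 bp (mean 32.7%), chosen after seeing the data, changed no call. With equal numbers of regions the Nkx2-1 locus called between marks was not left and has no value.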
